A study of Mus musculus with 8 samples.

Results

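Mouse embryonic stem cells that lack PCGF5 were followed from the undifferentiated state to the end of a neural differentiation course of 6 days. The data described here are the 4 Pcgf5-/- samples of a series of 8, 2 taken at day 0 and 2 at day 6, chosen by genotype and day as labelled. The other 4 samples are wild-type (WT) cells at the same days, 2 at each. All were MPI-II mESCs, a line of 129S2/SvPas background, and their polyadenylated RNA was sequenced as paired-end reads. At day 0 the cells grew with serum, LIF and 2 kinase inhibitors (2i), CHIR99021 and PD0325901, on plates coated with mitomycin-inactivated mouse embryo fibroblasts. At day 6 they had been kept as a monolayer in N2B27, a serum-free medium without LIF or inhibitors. The Pcgf5-/- line was made with a TALEN pair aimed at exon 2 and a donor carrying loxP-flanked puromycin and neomycin cassettes, each under a PGK promoter, and single colonies were picked. The number of colonies behind the 2 replicates is not given in the sources used here, so the knockout may stand for 1 clone. The design text calls the replicates biological without naming separate cultures, so the p-values below measure only the spread between these samples, which may in part be technical.

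PCGF5 is one of a small family of RING-finger proteins that each define a version of Polycomb repressive complex 1 (PRC1). It pairs with the E3 ligase RING1A or RING1B, and the complex places ubiquitin on histone H2A. Embryonic stem cells in LIF and 2i are held in a naive state by a network of transcription factors that includes NANOG, ESRRB, KLF4 and TFCP2L1. When LIF and the inhibitors are withdrawn, ERK signalling rises, the naive genes are shut off, cells pass through a formative state marked by OTX2 and FGF5, and in N2B27 many of them become SOX1-positive neural progenitors. The question of the comparison is which parts of that sequence the Pcgf5-/- cells still carried out over their own 6 days.

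The coding part of exon 2 is shown because it is the piece of the gene at which the knockout was aimed. It spans chr19:36486615-36486726 on the plus strand of build NCBIM37 (mm9), is 112 bases long, lies in the exon chr19:36486446-36486726 of both annotated transcripts that hold it, and its capitals mark the start codon.
Pcgf5 exon 2, coding bases: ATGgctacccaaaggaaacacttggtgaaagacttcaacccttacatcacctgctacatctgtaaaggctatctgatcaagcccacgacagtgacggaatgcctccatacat
Pcgf5 itself was at 1.28 and 1.84 FPKM at day 0 and 0.669 and 0.457 FPKM at day 6 in the Pcgf5-/- samples, against 5.18 and 3.63 FPKM at day 0 and 9.16 and 5.06 FPKM at day 6 in WT. All 4 Pcgf5-/- samples lay below all 4 WT samples, but none was at 0. The cassette was inserted into the exon and did not remove the rest of the gene, and an FPKM value over the whole gene does not show whether exon 2 was read. The day 0 cultures also stood on fibroblasts that were not knockout cells, and their part in the day 0 values was not tested. The change of Pcgf5 over the Pcgf5-/- course was -0.71 ± 0.28 and did not pass the test (adjusted p = 0.089).

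Expression is given as FPKM, the number of fragments scaled to transcript length and to the mapped fragments of the library, as the authors deposited it, so that levels can be compared between genes per unit of length. Of 24849 genes listed, the 13214 whose mean FPKM was over 1 in 1 or more of the 4 groups were tested with limma on log2(FPKM + 1) in 1 fit of all 8 samples. Each change below is a difference of log2(FPKM + 1), day 6 minus day 0, with its standard error (SE), and it understates the change of genes with low FPKM. A gene is said to have risen or fallen only where its Benjamini-Hochberg adjusted p over all tested genes was under 0.05. Between 11337 and 12097 genes exceeded 1 FPKM in a Pcgf5-/- sample. Replicates correlated across tested genes with a Pearson r of 0.972 at day 0 and 0.974 at day 6, against 0.893 to 0.907 between the days. The depth of each sample is not recoverable from FPKM, apart from a relative depth of 0.951, 1.08 and 0.887 for day 0 replicate 2 and day 6 replicates 1 and 2 against day 0 replicate 1. In bulk RNA, fewer cells of a type and less RNA per cell cannot be told apart.

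In the Pcgf5-/- course 2898 genes rose (21.9% of those tested) and 1373 fell (10.4%). In each of these 4271 genes both samples of one day lay beyond both samples of the other, as they did for 43.3% (day 6 above) and 25.1% (day 6 below) of all tested genes. On the log2(FPKM + 1) scale 1383 genes rose at least 2-fold and 236 at least 4-fold, while 670 fell at least 2-fold and 163 at least 4-fold. The genes that rose were weak at the start, with a median FPKM of 2.56 at day 0 and 7.60 at day 6, and 923 of them had a mean under 1 FPKM at day 0. The genes that fell were stronger, with a median of 14.9 FPKM at day 0 and 4.94 at day 6. The median change of all tested genes was 0.13. Scaling the samples by medians of ratios moved this median to -0.02, and the share of calls that were rises from 67.9% to 52.6% (53.1% with quantile normalization), so small rises depend on the scaling. A fit with 1 sample left out rests on fewer samples, so a call lost there does not by itself show an unstable change. With 1 sample left out the counts of rises and falls were 1550 and 879 without day 0 replicate 1, 2171 and 908 without day 0 replicate 2, 1877 and 815 without day 6 replicate 1, and 1717 and 712 without day 6 replicate 2. Of the genes still called in these fits, 1525, 2028, 1794 and 1610 rises and 749, 828, 767 and 670 falls were among the original calls.

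**Figure D1:**
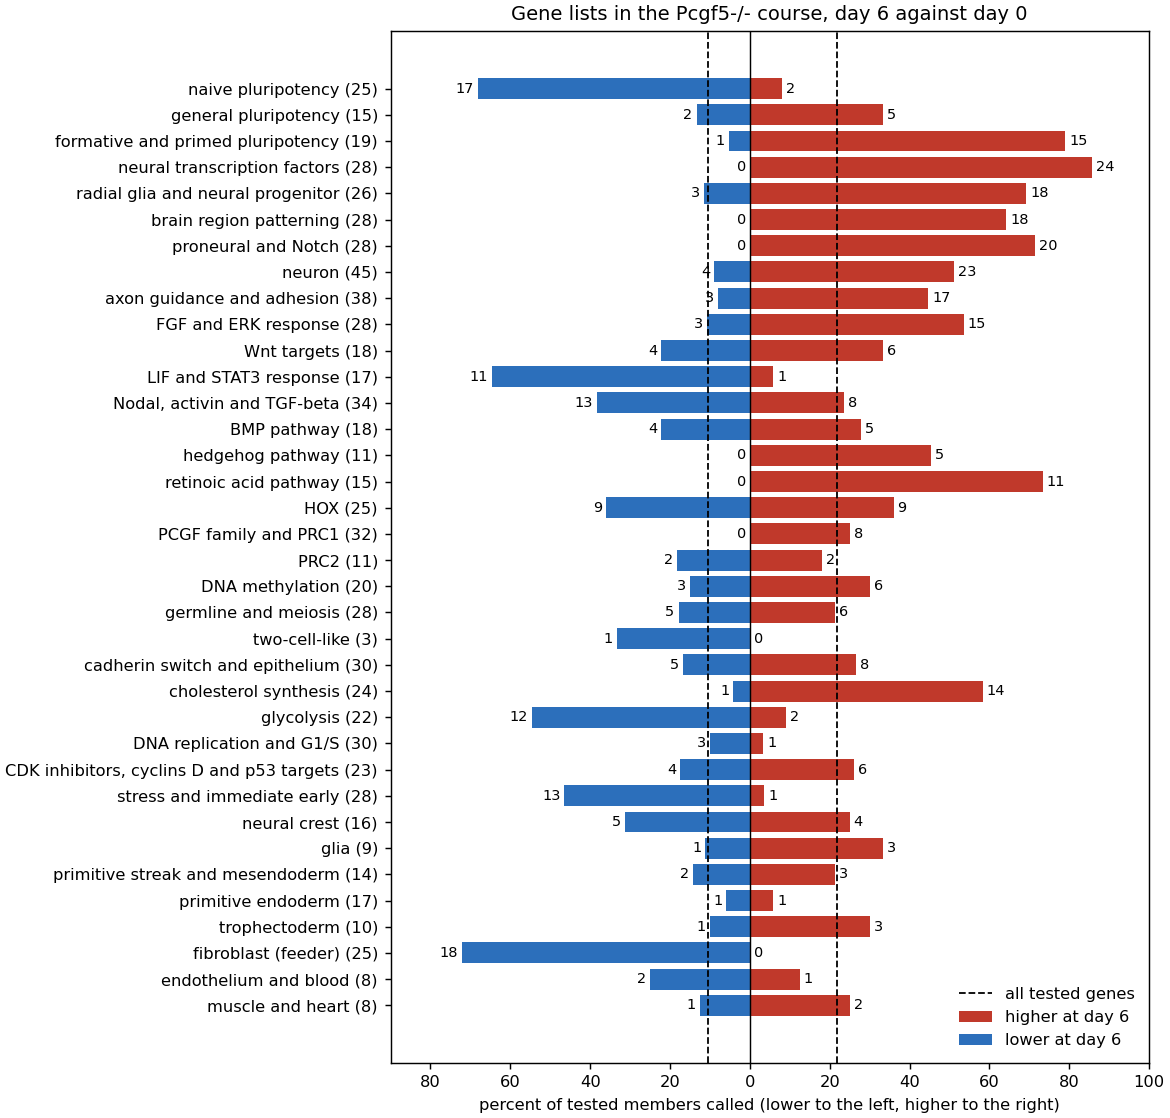
Percent of the tested members of each gene list that fell (bars to the left) or rose (bars to the right) in the Pcgf5-/- course, with the number of tested members in parentheses and the number called beside each bar. Dashed lines mark the 10.4% of all tested genes that fell and the 21.9% that rose. Naive pluripotency (17 of 25), LIF response (11 of 17), glycolysis (12 of 22) and fibroblast markers (18 of 25) stand to the left, and neural transcription factors (24 of 28), formative genes (15 of 19), retinoic acid (11 of 15) and proneural genes (20 of 28) to the right.

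In the lists below without a called fall, an unadjusted p under 0.05 with a negative change was found by limma for 1 proneural gene (Jag1), 3 PRC1 genes (Pcgf5, Fbrsl1 and Usp7) and 0 neural transcription, patterning, hedgehog or retinoic acid genes, and with a positive change for 0 fibroblast markers and 0 of 3 two-cell-like genes. Genes under 1 FPKM in both Pcgf5-/- day 0 samples had little room to fall. They were 17 of 30 listed neural transcription factors, 6 of 16 hedgehog genes and 8 of 18 retinoic acid genes, and most patterning and proneural genes.

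Most naive pluripotency genes fell, but none was under 1 FPKM in both day 6 samples. Of 25 tested members of the list 17 fell and 2 rose, with a median change of -1.35 against 0.13 over all tested genes. With day 0 replicate 2 or day 6 replicate 2 left out 11 fell, and with replicate 1 of either day left out 1 rose. Klf4, a target of LIF that helps to hold the naive state, was at 169 and 133 FPKM at day 0 and 6.27 and 8.53 FPKM at day 6, a change of -4.18 ± 0.29 (adjusted p = 0.00011). Tbx3, another factor of that network, was at 76.8 and 82.2 FPKM at day 0 and 4.13 and 3.31 FPKM at day 6, a change of -4.10 ± 0.36 (adjusted p = 0.00025). Both factors lost most of their mRNA in both replicates, and the values of the days lay far apart. Spp1, which encodes the secreted protein osteopontin, was at 353 and 280.2 FPKM at day 0 and 33.9 and 35.5 FPKM at day 6, a change of -3.14 ± 0.15 (adjusted p = 6.4e-05). Jam2, a junctional adhesion molecule, was at 68.0 and 61.1 FPKM at day 0 and 5.97 and 5.10 FPKM at day 6, a change of -3.33 ± 0.15. Other members of the network fell by less and stayed abundant. Esrrb, an orphan nuclear receptor that sustains self-renewal, was at 150.4 and 154 FPKM at day 0 and 41.7 and 35.8 FPKM at day 6, a change of -1.95 ± 0.16 (adjusted p = 0.00022). Nanog, the homeobox gene after which the network is often named, was at 391 and 335 FPKM at day 0 and 144 and 139 FPKM at day 6, a change of -1.35 ± 0.26 (adjusted p = 0.006). At day 6 both genes still stood above 30 FPKM in both samples. Zfp42 (Rex1), a naive marker, was at 197 and 229 FPKM at day 0 and 98.4 and 88.1 FPKM at day 6 and passed the test (change -1.18 ± 0.32, adjusted p = 0.025). It did not pass with any 1 Pcgf5-/- sample left out, where its change was -1.29 to -1.07.

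The 2 naive genes that rose were Dppa3 and Gbx2. Dppa3 (Stella), a maternal and germ cell gene that protects DNA methylation in the zygote, was at 14.7 and 8.41 FPKM at day 0 and 63.2 and 86.3 FPKM at day 6, a change of 2.62 ± 0.43 (adjusted p = 0.0033). Gbx2, which is both a LIF target in stem cells and a homeobox gene of the early hindbrain, was at 1.20 and 4.41 FPKM at day 0 and 30.4 and 16.1 FPKM at day 6, a change of 2.75 ± 0.70. Its call was lost without replicate 1 of day 0 or of day 6 (adjusted p up to 0.11). Dppa3, Nanog and Pou5f1 have processed pseudogenes in the mouse genome, and how reads that match several places were counted is not given in the sources used here.

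**Figure D2:**
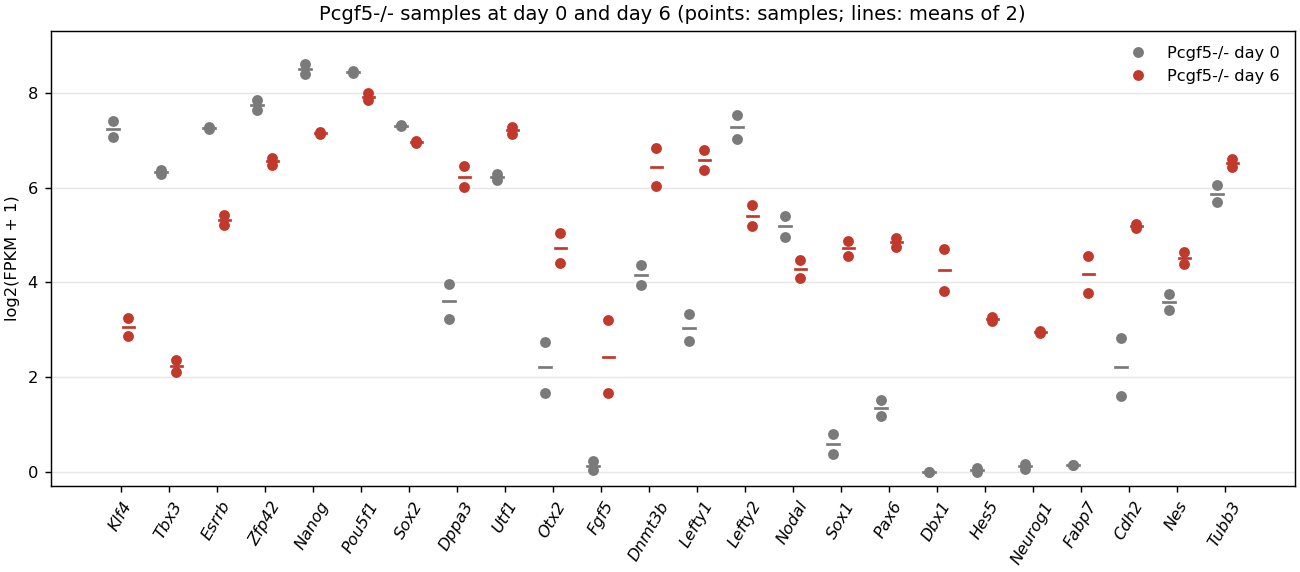
Values of selected pluripotency, formative, Nodal and neural genes in the 4 Pcgf5-/- samples as log2(FPKM + 1), with grey points for day 0, red points for day 6 and lines at the means of 2. Klf4 and Tbx3 drop steeply and Pou5f1 and Sox2 little, while Sox1, Dbx1, Hes5, Neurog1 and Fabp7 start near 0 and lie above 2 at day 6 in both samples.

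The core factors differed little between the days. Pou5f1 (Oct4), required for pluripotency, was at 339 and 351 FPKM at day 0 and 254 and 228 FPKM at day 6. Its change of -0.52 ± 0.35 did not pass the test (adjusted p = 0.29), although both day 6 samples lay below both day 0 samples and it passed in a fit of the 4 Pcgf5-/- samples alone (adjusted p = 0.034). The SE of the main fit pools the spread of all 4 groups, and the WT day 6 samples, given further below, differed widely for Pou5f1. The main test therefore does not measure the spread of the Pcgf5-/- samples alone. Sox2, which is needed in pluripotent cells and in neural progenitors alike, was at 158 and 156 FPKM at day 0 and 125 and 121 FPKM at day 6, a change of -0.35 ± 0.11 that passed (adjusted p = 0.035). It did not pass with any 1 Pcgf5-/- sample left out, where its change was -0.37 to -0.33. Among 15 tested genes of general pluripotency 5 rose (among them Lin28a, Utf1, Sall1 and Tcf7l1) and 2 fell (Sox2 and Mybl2). These were shares of 33.3% and 13.3%, beside 21.9% and 10.4% of all tested genes. The rises numbered 1 without replicate 1 of either day and 3 without day 0 replicate 2, and 1 fell with any sample left out. Lin28a, an RNA-binding protein that blocks let-7 maturation, was at 48.5 and 34.4 FPKM at day 0 and 153 and 144 FPKM at day 6, a change of 1.84 ± 0.35 (adjusted p = 0.0064). Utf1, a chromatin protein of undifferentiated stem cells, was at 70.9 and 77.2 FPKM at day 0 and 154 and 139 FPKM at day 6. This was a rise of 0.98 ± 0.27 (adjusted p = 0.025), not called with any 1 Pcgf5-/- sample left out, where it was 0.91 to 1.05. Mybl2, a cell-cycle transcription factor, was at 134 and 151 FPKM at day 0 and 49.3 and 53.7 FPKM at day 6, a change of -1.45 ± 0.11 (adjusted p = 0.00018).

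Most genes of the LIF response list fell between the days, over which LIF, serum, 2i and the fibroblast layer were all withdrawn. Of 17 tested members of the LIF and STAT3 list 11 fell and 1, Gbx2, rose, at a median change of -1.11. Socs3, the feedback inhibitor that STAT3 induces, was at 42.0 and 25.4 FPKM at day 0 and 6.03 and 5.60 FPKM at day 6, a change of -2.30 ± 0.24 (adjusted p = 0.00048). Junb, an immediate early gene of the AP-1 family, was at 30.4 and 39.5 FPKM at day 0 and 3.82 and 3.86 FPKM at day 6, a change of -2.88 ± 0.18 (adjusted p = 9.0e-05). Tfcp2l1, a direct STAT3 target in the naive network, was at 60.2 and 50.9 FPKM at day 0 and 7.28 and 5.18 FPKM at day 6, a change of -2.98 ± 0.23 (adjusted p = 0.00015). In all 3 of these genes both day 6 samples were far below both day 0 samples. The receptor subunits Lifr and Il6st did not pass the test in either direction.

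Genes of the formative and primed states rose. Of 19 tested members 15 rose and 1, Foxd3, fell, at a median change of 2.19, and the counts stayed within 1.5 times of these with any sample left out. Otx2, the transcription factor that directs exit from the naive state and later marks forebrain and midbrain, was at 5.71 and 2.17 FPKM at day 0 and 31.9 and 20.1 FPKM at day 6, a change of 2.52 ± 0.42 (adjusted p = 0.0037). Fgf5, the classical marker of the epiblast, was at 0.0269 and 0.166 FPKM at day 0 and 8.19 and 2.15 FPKM at day 6, a change of 2.30 ± 0.56 (adjusted p = 0.016) that was lost without either day 0 replicate or without day 6 replicate 1 (adjusted p up to 0.087). Dnmt3b, the de novo DNA methyltransferase of the epiblast, was at 14.4 and 19.5 FPKM at day 0 and 112 and 64.8 FPKM at day 6, a change of 2.28 ± 0.37 (adjusted p = 0.0033). These 3 genes and Pou3f1 were higher in replicate 1 than in replicate 2 of day 6. Pou3f1 (Oct6), a POU factor of the epiblast and early neural plate, was at 1.08 and 2.67 FPKM at day 0 and 28.3 and 12.2 FPKM at day 6, a change of 2.83 ± 0.40, and is named here after its values were seen. Sall2, Sfrp2 and Pim2 were among the largest rises of the list. Sall2, a zinc-finger gene, was at 0.822 and 1.10 FPKM at day 0 and 33.0 and 23.6 FPKM at day 6, a change of 3.89 ± 0.22 (adjusted p = 6.8e-05). Sfrp2, a secreted modulator of Wnt signalling, was at 3.78 and 6.81 FPKM at day 0 and 53.6 and 68.7 FPKM at day 6, a change of 3.34 ± 0.23 (adjusted p = 0.00011). Pim2, a serine/threonine kinase, was at 6.78 and 5.42 FPKM at day 0 and 78.1 and 54.5 FPKM at day 6, a change of 3.23 ± 0.40 (adjusted p = 0.0011).

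Of 28 tested genes of FGF and ERK signalling 15 rose and 3 (Fgf4, Fos and Ier3) fell, with 8 rises left without day 0 replicate 1 and 6 without day 6 replicate 1. Dusp6, a phosphatase that ERK induces and that dampens ERK, was at 6.13 and 5.86 FPKM at day 0 and 38.4 and 24.97 FPKM at day 6, a change of 2.19 ± 0.23 (adjusted p = 0.00054). Fgfr2, an FGF receptor, was at 0.836 and 0.657 FPKM at day 0 and 13.2 and 11.1 FPKM at day 6, a change of 2.91 ± 0.26 (adjusted p = 0.00026). Fgf15, a ligand of the developing neural tube, was at 0.625 and 0.693 FPKM at day 0 and 16.7 and 6.38 FPKM at day 6, a change of 2.78 ± 0.36 (adjusted p = 0.0012). All 3 were clearly higher in both day 6 samples, Fgf15 most unevenly so.

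Neural transcription factors were the list with the largest share of rises among those in the plot of list counts. Of 28 tested 24 rose, none fell, and the median change was 2.13. Sox1, the earliest marker of definitive neural cells, was at 0.295 and 0.729 FPKM at day 0 and 22.7 and 28.3 FPKM at day 6, a change of 4.14 ± 0.23 (adjusted p = 6.8e-05). Pax6, which patterns the neural tube and eye, was at 1.27 and 1.85 FPKM at day 0 and 25.9 and 29.7 FPKM at day 6, a change of 3.50 ± 0.21 (adjusted p = 7.3e-05). Both were under 2 FPKM in the day 0 samples and above 20 FPKM in the day 6 samples. Sox3, the X-linked partner of Sox1 and Sox2 in neural progenitors, was at 1.65 and 2.56 FPKM at day 0 and 39.6 and 37.1 FPKM at day 6, a change of 3.68 ± 0.21 (adjusted p = 6.8e-05). Sox11, a SoxC factor of differentiating neural cells, was at 1.29 and 1.70 FPKM at day 0 and 35.9 and 41.0 FPKM at day 6, a change of 3.99 ± 0.21. Meis1, a TALE homeobox cofactor of HOX and PAX proteins, was at 0.525 and 0.762 FPKM at day 0 and 18.9 and 21.6 FPKM at day 6, a change of 3.70 ± 0.17 (adjusted p = 5.4e-05). The replicates of day 6 agreed closely for these genes. The 4 members that did not pass were Sox6, Sox8, Zic1 and Zic5.

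Progenitor markers rose as well, at more varied size. Of 26 tested radial glia and progenitor genes 18 rose and 3 fell (Vim, Tnc and Plagl1), at a median of 1.37. The part of fibroblasts in these 3 falls was not tested. Fabp7 (BLBP), a fatty-acid binding protein of radial glia, was at 0.103 and 0.109 FPKM at day 0 and 12.8 and 22.4 FPKM at day 6, a change of 4.02 ± 0.33 (adjusted p = 0.0002). Nes, the intermediate filament nestin, was already present at day 0 and was at 9.62 and 12.6 FPKM at day 0 and 24.0 and 19.97 FPKM at day 6, a change of 0.93 ± 0.16 (adjusted p = 0.0044). Its rise was small beside that of Fabp7. Nnat, an imprinted membrane protein gene of the embryonic brain, was at 5.76 and 4.71 FPKM at day 0 and 142 and 199.5 FPKM at day 6 and had the largest rise of the 106 genes whose changes are given here, at 4.77 ± 0.25 (adjusted p = 6.8e-05).

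Proneural and Notch genes rose too. Of 35 listed 28 were tested, of which 20 rose and none fell, at a median of 1.58. In both Pcgf5-/- day 0 samples 21 of the 35 were under 1 FPKM and had little room to fall. Hes5, the Notch effector that keeps progenitors dividing, was at 0 and 0.0575 FPKM at day 0 and 8.14 and 8.57 FPKM at day 6, a change of 3.18 ± 0.17 (adjusted p = 6.8e-05). Dll1, the Notch ligand on nascent neurons, was at 0.424 and 0.135 FPKM at day 0 and 7.76 and 7.40 FPKM at day 6, a change of 2.75 ± 0.22 (adjusted p = 0.00021). Neurog1, a proneural basic helix-loop-helix factor, was at 0.0403 and 0.127 FPKM at day 0 and 6.81 and 6.63 FPKM at day 6, a change of 2.83 ± 0.28 (adjusted p = 0.00037). Effector, ligand and proneural factor were all under 1 FPKM in both day 0 samples and above 5 in both day 6 samples. Neurod1, which acts after the neurogenins, was at 0.181 and 0.298 FPKM at day 0 and 9.18 and 6.59 FPKM at day 6, a change of 2.83 ± 0.25 (adjusted p = 0.00027).

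Of the neuronal genes 51.1% rose, beside 21.9% of all tested genes, and 8.89% fell, beside 10.4%. Of 45 tested 23 rose and 4 (Mapt, Stmn2, Sncg and Gad1) fell, with 2 falls without day 0 replicate 1 and 1 without day 6 replicate 2. Nhlh1, a basic helix-loop-helix factor of young neurons, was at 0.0259 and 0 FPKM at day 0 and 10.2 and 8.89 FPKM at day 6, a change of 3.38 ± 0.23 (adjusted p = 0.00011). Scg3, a protein of secretory granules, was at 0.266 and 0.560 FPKM at day 0 and 7.83 and 11.3 FPKM at day 6, a change of 2.89 ± 0.25 (adjusted p = 0.00025). Elavl4, a neuronal RNA-binding protein, was at 0.518 and 1.00 FPKM at day 0 and 10.2 and 11.1 FPKM at day 6, a change of 2.74 ± 0.25. These and Snap25, a SNARE protein of synapses, were under 2 FPKM in both day 0 samples. Snap25 was at 0 and 0.0969 FPKM at day 0 and 5.82 and 4.84 FPKM at day 6, a change of 2.59 ± 0.22 (adjusted p = 0.00023). Elavl3, a close relative of Elavl4, was at 2.02 and 2.27 FPKM at day 0 and 8.08 and 7.33 FPKM at day 6, a change of 1.47 ± 0.20 (adjusted p = 0.0015). Tubb3, the neuronal beta-tubulin, was at 50.5 and 65.7 FPKM at day 0 and 96.7 and 85.4 FPKM at day 6, a change of only 0.65 ± 0.21 (adjusted p = 0.044). Its call was lost without replicate 1 of either day or without day 6 replicate 2 (adjusted p up to 0.23). Stmn2, a microtubule regulator used as a neuronal marker, was at 90.0 and 92.1 FPKM at day 0 and 36.2 and 32.3 FPKM at day 6, a change of -1.39 ± 0.12 (adjusted p = 0.00027). Mapt, which encodes tau, was at 8.48 and 6.36 FPKM at day 0 and 1.93 and 1.31 FPKM at day 6, a change of -1.68 ± 0.33 (adjusted p = 0.0072), not called without day 6 replicate 2 (adjusted p = 0.052). Among 38 tested genes of axon guidance and adhesion 17 rose and 3 (Ntn1, Epha4 and Nrp2) fell.

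Many tested genes of brain regions rose. Of 46 listed genes of brain region patterning 28 were tested, of which 18 rose and none fell. A fall was called without day 6 replicate 1. In both Pcgf5-/- day 0 samples 34 of the 46 were under 1 FPKM and had little room to fall. Dbx1, a homeobox gene of the ventral and intermediate neural tube, was listed at 0 in both day 0 samples and at 13.1 and 24.9 FPKM at day 6. Irx3, an Iroquois gene of the neural plate behind the forebrain, was at 0.882 and 1.24 FPKM at day 0 and 14.9 and 18.9 FPKM at day 6, a change of 3.11 ± 0.31 (adjusted p = 0.0004). Nr2f1 (COUP-TFI), a nuclear receptor of the developing brain, was at 0.372 and 0.584 FPKM at day 0 and 2.89 and 5.32 FPKM at day 6, a change of 1.75 ± 0.27 (adjusted p = 0.0028). In the retinoic acid list 11 of 15 tested genes rose and none fell, at a median of 1.20. Crabp1, a retinoic acid binding protein of the early neural tube, was at 25.1 and 34.0 FPKM at day 0 and 348 and 452 FPKM at day 6, a change of 3.72 ± 0.24 (adjusted p = 9.0e-05). Crabp2, which carries retinoic acid to its receptor, was at 7.63 and 10.9 FPKM at day 0 and 90.3 and 149 FPKM at day 6, a change of 3.53 ± 0.30 (adjusted p = 0.00023). Cyp26a1, the enzyme that degrades retinoic acid, was at 0.187 and 0.117 FPKM at day 0 and 3.09 and 12.1 FPKM at day 6, a change of 2.67 ± 0.47 (adjusted p = 0.0043). The binding proteins were high in both day 6 samples, while Cyp26a1 differed several-fold between them. In the hedgehog list 5 of 11 rose (Smo, Gli3, Boc, Cdon and Sufu) and none fell, with 3 rises without replicate 1 of either day. Boc, a hedgehog co-receptor, was at 0.803 and 1.34 FPKM at day 0 and 6.04 and 6.97 FPKM at day 6, a change of 1.87 ± 0.23. Gli3, the repressor among the transcription factors of the pathway, was at 3.01 and 4.10 FPKM at day 0 and 10.4 and 8.78 FPKM at day 6, a change of 1.22 ± 0.19 (adjusted p = 0.0025).

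HOX genes split by their place in the clusters. Of 25 tested 9 rose and 9 fell, and the members that rose were all of paralogue groups 1 to 5 of Hoxa and Hoxb, while those that fell were all of groups 8 to 13. Low-numbered HOX genes are expressed in the hindbrain and are the first to respond to retinoic acid, and high-numbered ones mark the trunk and limbs. Hoxa2 was at 0.0750 and 0.393 FPKM at day 0 and 15.0 and 15.2 FPKM at day 6, a change of 3.72 ± 0.22 (adjusted p = 7.4e-05). Hoxa3 was at 0.0759 and 0.530 FPKM at day 0 and 12.1 and 6.26 FPKM at day 6, a change of 2.93 ± 0.30 (adjusted p = 0.00045). Hoxb2 was at 0.289 and 1.43 FPKM at day 0 and 8.82 and 16.2 FPKM at day 6, a change of 2.88 ± 0.37 (adjusted p = 0.0012). Smaller rises were those of Hoxa4 (1.08 ± 0.30), Hoxa5 (1.29 ± 0.31), Hoxb1 (1.45 ± 0.41), Hoxb3 (0.82 ± 0.22) and Hoxb4 (1.16 ± 0.36). These 5 genes are named after their values were seen, and each lost its call in at least 2 of the 4 fits with a sample left out. Of the genes that fell, Hoxc13 was at 6.13 and 5.78 FPKM at day 0 and 0.222 and 0.210 FPKM at day 6, a change of -2.52 ± 0.23 (adjusted p = 0.00028). Hoxb9 was at 7.65 and 7.60 FPKM at day 0 and 0.486 and 0.858 FPKM at day 6, a change of -2.38 ± 0.29 (adjusted p = 0.001). Hoxc8 was at 1.83 and 5.75 FPKM at day 0 and 0.0254 and 0.123 FPKM at day 6, a change of -2.03 ± 0.37 (adjusted p = 0.0052). Hoxc13 and Hoxb9 were about equally high in both day 0 samples, and Hoxc8 was higher in replicate 2, the sample with more fibroblast mRNA. The part of fibroblasts in the falls of any of these HOX genes was not tested. Without replicate 1 of either day 4 HOX genes rose, and without replicate 2 of either day 5 fell. The counting is not stated to use strand, so reads of a HOX gene and of a transcript antisense to it cannot be told apart.

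**Figure D3:**
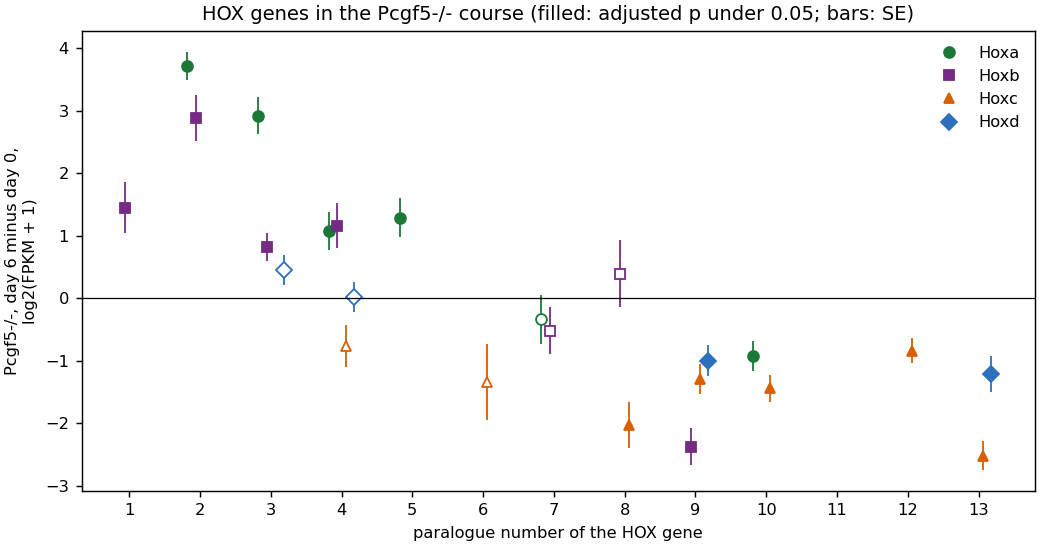
Change of tested HOX genes in the Pcgf5-/- course, day 6 minus day 0 in log2(FPKM + 1), against its paralogue number, with SE as bars, shape and colour by cluster and filled symbols for adjusted p under 0.05. Filled symbols lie above 0 for groups 1 to 5 and below 0 for groups 8 to 13.

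Among signalling genes of the Nodal, activin and TGF-β branch 23.5% rose, near the 21.9% of all tested genes. The share that fell was 38.2%, beside 10.4% of all tested genes. Of 34 tested 8 rose and 13 fell, and falls numbered 6 without day 0 replicate 2, 8 without day 6 replicate 1 and 3 without day 6 replicate 2, while 4 rose without replicate 1 of either day. Nodal, the ligand that maintains the epiblast, was at 41.1 and 30.2 FPKM at day 0 and 21.0 and 16.1 FPKM at day 6, a change of -0.90 ± 0.28 (adjusted p = 0.039) that was lost with any 1 sample left out (adjusted p 0.053 to 0.20). Lefty1, a secreted inhibitor of Nodal, was at 5.75 and 9.07 FPKM at day 0 and 109.9 and 81.8 FPKM at day 6, a rise of 3.54 ± 0.55 (adjusted p = 0.0027). Lefty2, its neighbour on chromosome 1, was at 129 and 183 FPKM at day 0 and 48.5 and 35.5 FPKM at day 6, a change of -1.87 ± 0.37 (adjusted p = 0.0072), not called without day 6 replicate 2 (adjusted p = 0.054). These inhibitors went opposite ways, Lefty1 up and Lefty2 down in both replicates. They are close copies of each other and reads could have been split between them, so that their values are uncertain. Inhba, the activin subunit, was at 5.72 and 18.0 FPKM at day 0 and 0.124 and 0.150 FPKM at day 6, a change of -3.31 ± 0.45 (adjusted p = 0.0015). Tgfbr2, the type II receptor, was at 3.62 and 8.59 FPKM at day 0 and 0.707 and 0.685 FPKM at day 6, a change of -1.97 ± 0.42, lost without replicate 2 of either day (adjusted p up to 0.054). Inhba and Tgfbr2 were each at least 2 times as high in day 0 replicate 2 as in replicate 1, as fibroblast markers were, and the part of fibroblasts in their falls was not tested.

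Of 18 tested Wnt targets 6 rose and 4 (Sp5, Cdx1, Apcdd1 and Bmp4) fell, with 2 falls without day 6 replicate 2. Lef1, a transcription factor and target of Wnt signalling, was at 0.648 and 0.603 FPKM at day 0 and 32.5 and 15.4 FPKM at day 6, a change of 3.85 ± 0.33 (adjusted p = 0.00025). Fzd2, a Wnt receptor, was at 2.72 and 4.44 FPKM at day 0 and 26.0 and 29.4 FPKM at day 6, a change of 2.67 ± 0.23 (adjusted p = 0.00024). Cdx1, a posterior homeobox gene, was at 5.56 and 18.5 FPKM at day 0 and 0.212 and 0.0430 FPKM at day 6, a change of -3.33 ± 0.43 (adjusted p = 0.0012). Receptor and transcription factor were up and the posterior gene down, with Cdx1 higher in replicate 2 of day 0. The 2i inhibitors were present only at day 0, and their part in these changes was not tested. Of the Wnt targets 33.3% rose and 22.2% fell, and of the BMP list 27.8% and 22.2%, beside 21.9% and 10.4% of all tested genes. The 5 of 18 BMP genes that rose were Bmp6, Bmpr1b, Smad1, Smad5 and Id2, and the 4 that fell were Bmp4, Id3, Grem1 and Bambi. Of these, 2 rises were left without day 0 replicate 1, 1 without day 6 replicate 1 and 3 without day 6 replicate 2, which also left 2 falls.

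Most other Polycomb genes had no called change. Of 32 tested genes of the PCGF family and PRC1 8 rose and none fell, a share of 25% beside the 21.9% of all tested genes, with 5 rises without day 0 replicate 1 and 1 fall without day 6 replicate 1. Phc2, a polyhomeotic subunit of canonical PRC1, was at 9.24 and 11.5 FPKM at day 0 and 34.6 and 38.1 FPKM at day 6, a change of 1.72 ± 0.16 (adjusted p = 0.0003). Ring1, which encodes RING1A, was at 3.90 and 4.63 FPKM at day 0 and 9.99 and 15.1 FPKM at day 6, a change of 1.34 ± 0.24 (adjusted p = 0.0045). E2f6, a repressor that belongs to the PCGF6 form of PRC1, was at 12.3 and 12.2 FPKM at day 0 and 30.4 and 28.4 FPKM at day 6, a change of 1.19 ± 0.13 (adjusted p = 0.00053). All 3 rose in both replicates. No other PCGF gene passed the test. Of 11 tested PRC2 genes 2 rose and 2 fell, a share of 18.2% each beside 21.9% and 10.4% of all tested genes. Phf19, a Polycomb-like accessory subunit, was at 0.823 and 0.614 FPKM at day 0 and 4.09 and 5.99 FPKM at day 6, a rise of 1.80 ± 0.24 (adjusted p = 0.0013). Ezh2, the methyltransferase, was at 73.1 and 67.4 FPKM at day 0 and 88.6 and 98.3 FPKM at day 6, a change of 0.41 ± 0.12 (adjusted p = 0.035). Eed, which binds the methyl mark, was at 75.8 and 67.4 FPKM at day 0 and 41.7 and 42.1 FPKM at day 6, a change of -0.76 ± 0.12 (adjusted p = 0.0031). Suz12, a scaffold subunit, was at 117 and 103 FPKM at day 0 and 63.8 and 53.4 FPKM at day 6, a change of -0.90 ± 0.19. The call of Ezh2 was lost with scaling by medians of ratios or upper quartiles and with any 1 sample left out (adjusted p 0.056 to 0.15) and that of Suz12 without day 0 replicate 1 or day 6 replicate 2 (adjusted p up to 0.063), leaving 1 call in each direction. In the DNA methylation list 6 of 20 rose, Dnmt3b among them, and 3 fell (Uhrf1, Tet2 and Gadd45b). These were shares of 30% and 15%, beside 21.9% and 10.4% of all tested genes. Fewer rises were left without replicate 1 of either day.

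Genes of glycolysis and of cholesterol synthesis differed in direction. Of 22 tested glycolysis genes 12 fell and 2 (Slc2a1 and Pfkm) rose, with 4 falls without day 0 replicate 1 and 5 without day 6 replicate 2. Ldha, lactate dehydrogenase A, was at 504 and 389 FPKM at day 0 and 139 and 132 FPKM at day 6, a change of -1.70 ± 0.15 (adjusted p = 0.00024). Pfkp, the platelet-type phosphofructokinase, was at 68.3 and 50.02 FPKM at day 0 and 16.8 and 10.5 FPKM at day 6, a change of -2.06 ± 0.29 (adjusted p = 0.0017). Both day 6 samples were far lower than both day 0 samples. Genes of cholesterol synthesis went up, with 14 of 24 higher and 1, Ebp, lower, at a median of 0.55. Lss, lanosterol synthase, was at 10.8 and 11.01 FPKM at day 0 and 26.1 and 22.8 FPKM at day 6, a change of 1.09 ± 0.14 (adjusted p = 0.0012). Msmo1, a sterol demethylase of the same path, was at 65.8 and 71.4 FPKM at day 0 and 133 and 123 FPKM at day 6, a change of 0.89 ± 0.15 (adjusted p = 0.0036). These rises are near or under 2-fold, and 9 remained with scaling by medians of ratios, 6 without day 0 replicate 1 and 8 without day 6 replicate 1. Of 30 DNA replication genes 4 were called, beside 32.3% of all tested genes, 1 higher (Rfc4) and 3 lower (Mcm4, Orc1 and Uhrf1), but 12 were lower with scaling by medians of ratios.

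Of 23 CDK inhibitors, D-type cyclins and p53 targets 6 rose and 4 fell, with 3 rises with any sample left out and 2, 1 and 2 falls without day 0 replicate 2, day 6 replicate 1 and day 6 replicate 2. Cdkn1c (p57), an imprinted CDK inhibitor, was at 0.763 and 1.60 FPKM at day 0 and 11.8 and 7.53 FPKM at day 6, a change of 2.29 ± 0.38 (adjusted p = 0.0037). Cdkn1a (p21), a p53 target, was at 150.3 and 162 FPKM at day 0 and 79.0 and 65.8 FPKM at day 6, a change of -1.10 ± 0.20 (adjusted p = 0.0055). The 2 inhibitors of the same family went opposite ways. In their whole list 26.1% rose and 17.4% fell, beside 21.9% and 10.4% of all tested genes. Of 28 stress and immediate early genes 13 fell and 1, Egr1, rose. Of these falls 8 were left without replicate 1 of either day and 7 without day 6 replicate 2, and the rise was lost without day 0 replicate 2 or day 6 replicate 1. Atf3, a stress-induced transcription factor, was at 11.8 and 9.80 FPKM at day 0 and 0.743 and 1.54 FPKM at day 6, a change of -2.48 ± 0.34 (adjusted p = 0.0016).

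In the cadherin and epithelium list 8 of 30 rose and 5 (Cdh1, Cdh11, Ocln, Snai1 and Vim) fell. Fewer falls were left without either day 6 replicate. Cdh11 was at 6.44 and 23.5 FPKM at day 0 and 2.75 and 2.39 FPKM at day 6. It was higher in replicate 2 of day 0, as fibroblast markers were, and the part of fibroblasts in the falls of Cdh11 and Vim was not tested. Cdh1 (E-cadherin), the adhesion molecule of stem cells and epithelia, was at 153 and 140.4 FPKM at day 0 and 81.2 and 64.3 FPKM at day 6, a change of -1.01 ± 0.19 (adjusted p = 0.0054). Cdh2 (N-cadherin), that of neural progenitors, was at 2.05 and 6.09 FPKM at day 0 and 36.8 and 34.6 FPKM at day 6, a change of 2.98 ± 0.33 (adjusted p = 0.00065). The cadherins crossed in direction but not in level, since Cdh1 mRNA remained above Cdh2 mRNA at day 6 on the FPKM scale. Of their list 26.7% rose and 16.7% fell, beside 21.9% and 10.4% of all tested genes. Zeb2, a repressor of E-cadherin, was at 0.467 and 1.78 FPKM at day 0 and 6.47 and 4.70 FPKM at day 6, a change of 1.69 ± 0.30 (adjusted p = 0.0045). Of 28 tested germline genes 6 rose (21.4%, near the 21.9% of all tested genes) and 5 fell. Smc1b, a meiotic cohesin subunit, was at 3.95 and 4.05 FPKM at day 0 and 27.9 and 17.5 FPKM at day 6, a change of 2.21 ± 0.41 (adjusted p = 0.0052). Dazl, an RNA-binding protein of germ cells, was at 21.0 and 21.1 FPKM at day 0 and 5.41 and 4.47 FPKM at day 6, a change of -1.90 ± 0.29 (adjusted p = 0.0025). Of the 3 tested members of the two-cell-like list 1, Eif1a, fell, from 107.5 and 92.6 FPKM at day 0 to 56.0 and 51.2 FPKM at day 6. In that list 11 genes were under 1 FPKM in both Pcgf5-/- samples of day 0, and 11 in both of day 6. The fall of 1 abundant member is not a result about the list.

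Markers of other lineages moved in both directions, in lists too small to read against the 21.9% of all tested genes that rose and the 10.4% that fell. Among neural crest genes 4 of 16 rose (among them Pax3, Pax7 and Ednrb) and 5 fell, with 2 and 3 without day 6 replicate 2. Ednrb, the endothelin receptor of crest and progenitor cells, was at 0.282 and 0.192 FPKM at day 0 and 8.75 and 8.71 FPKM at day 6, a change of 2.98 ± 0.18 (adjusted p = 7.7e-05). Pax3, a gene of the dorsal neural tube, was at 0.0562 and 0.0391 FPKM at day 0 and 1.06 and 1.69 FPKM at day 6, a change of 1.17 ± 0.25, not called without day 6 replicate 2 (adjusted p = 0.065). For glia 3 of 9 rose (Olig2, Mbp and Slc1a2) and 1 fell, for primitive streak and mesendoderm 3 of 14 rose (Wnt3, Fgf8 and Meox1) and 2 fell, and for primitive endoderm 1 of 17 rose and 1 fell. For trophectoderm 3 of 10 rose and 1 fell, for endothelium and blood 1 of 8 rose and 2 fell, and for muscle and heart 2 of 8 rose and 1 fell. Each of these small counts changed by up to 2 with a sample left out. The primitive streak gene T and the endoderm genes Sox17, Foxa2, Gata4 and Gata6 were not called in either direction.

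Fibroblast genes had the lowest median change of the lists in the plot of list counts. Of 25 markers tested 18 fell and none rose, at a median of -2.50, and 1 rose without day 0 replicate 2. The summed FPKM of the list was 552.4 and 1410 at day 0 and 161.3 and 138.5 at day 6, against 763 and 580.5 at day 0 and 153.3 and 314.5 at day 6 in WT. Col1a1, a collagen chain, was at 73.8 and 263 FPKM at day 0 and 3.09 and 3.27 FPKM at day 6, a change of -5.07 ± 0.53 (adjusted p = 0.00051). Ccl2, a chemokine, was at 43.5 and 84.0 FPKM at day 0 and 0.799 and 0.752 FPKM at day 6, a change of -5.11 ± 0.53 (adjusted p = 0.0005). S100a4, a calcium-binding protein of fibroblasts, was at 29.3 and 31.8 FPKM at day 0 and 0.348 and 0.210 FPKM at day 6, a change of -4.63 ± 0.29 (adjusted p = 9.0e-05). All 3 were abundant in both day 0 samples, and S100a4 and Ccl2 were under 1 FPKM in both day 6 samples. The chemokine Cxcl1, outside the list, was at 30.1 and 44.9 FPKM at day 0 and 0 and 0.175 FPKM at day 6, a change of -5.12 ± 0.78 (adjusted p = 0.0025). Of the 25 markers 24 were higher in day 0 replicate 2 than in replicate 1, with a median log2 difference of 0.99, beside 0.04 over all tested genes. Among the 1373 genes that fell, 82 (5.97%) were at least 2-fold higher in day 0 replicate 2 and 13 (0.947%) at least 2-fold higher in replicate 1, against 292 (2.21%) and 104 (0.787%) of all tested genes. The median difference of the genes that fell was -0.01, and the part of fibroblasts in their falls was not tested. The day 0 cultures alone stood on fibroblast-coated plates, so that loss of feeder mRNA and silencing in the stem cells cannot be told apart for genes that both cell types express. Of the 17 naive genes that fell, 11 were higher in replicate 1 of day 0 (Klf4 and Nanog among them) and 6 in replicate 2 (Tbx3, Esrrb and Zfp42 among them).

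**Figure D4:**
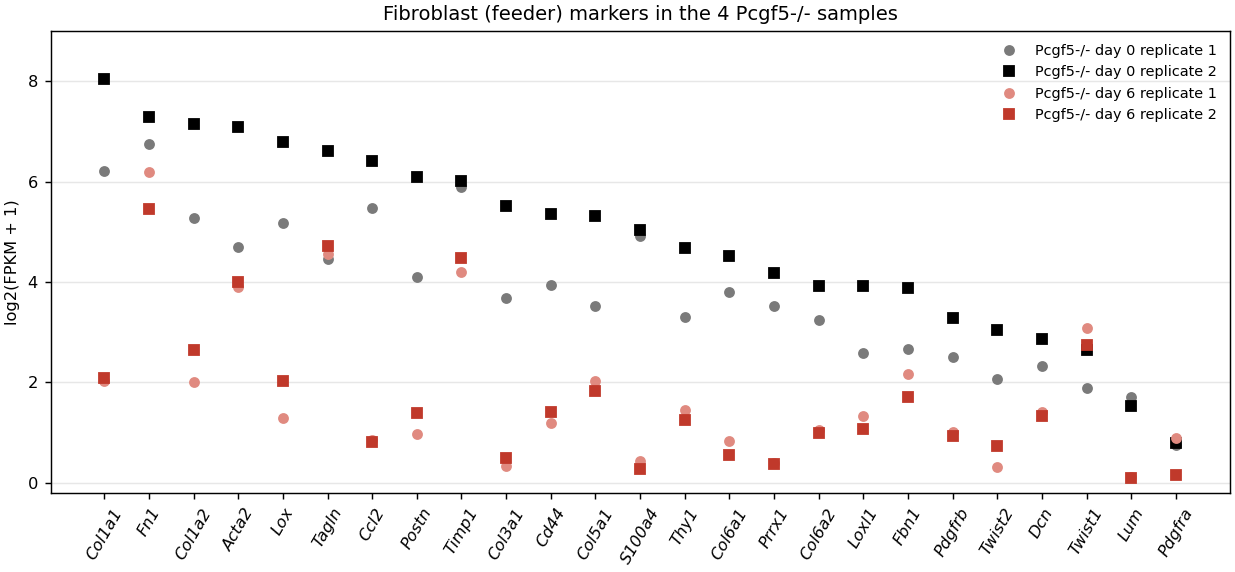
The 25 fibroblast markers in the 4 Pcgf5-/- samples as log2(FPKM + 1), ordered by day 0 replicate 2, with day 0 in grey (replicate 1) and black (replicate 2) and day 6 in pale and dark red. Black squares lie above grey points for 24 of 25 markers, and most red symbols lie below both, with Tagln and Twist1 among the exceptions.

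The WT course gives the scale of what the Pcgf5-/- cells did. In WT 4522 genes rose (34.2% of those tested) and 2146 fell (16.2%). The courses share no sample, but both were tested in 1 fit with the same SE for each gene, so their calls are not independent. Of the genes that rose in Pcgf5-/- cells 2402 also rose in WT, which is 82.9% of the Pcgf5-/- rises and 53.1% of the WT rises, with a median change of 1.01 in Pcgf5-/- and 1.38 in WT cells. Of those that fell 973 also fell in WT, 70.9% of the Pcgf5-/- falls and 45.3% of the WT falls, with medians of -1.06 and -1.35. A further 2117 genes rose in WT alone, and 1856 of them had a positive change in Pcgf5-/- cells, with medians of 0.33 in Pcgf5-/- and 0.84 in WT. Of 1146 genes that fell in WT alone 935 had a negative change in Pcgf5-/- cells, with medians of -0.25 and -0.81. A call in one genotype and not in the other is not itself a difference, which was tested for each gene as the change in Pcgf5-/- minus the change in WT. That test called 177 genes above WT (1.34% of those tested) and 231 below (1.75%), and 3064 genes had an unadjusted p under 0.05. Of the 177 genes 157 had fallen in WT, and of the 231 genes 225 had risen in WT, 147 of which had also risen in Pcgf5-/- cells. These counts were unstable. They were 5 and 8 without Pcgf5-/- day 0 replicate 2, 4 and 0 without Pcgf5-/- day 6 replicate 1, 5 and 0 without Pcgf5-/- day 6 replicate 2, 4 and 0 without WT day 0 replicate 2 and 15 and 25 without WT day 6 replicate 2. They were 102 and 233 without Pcgf5-/- day 0 replicate 1, 118 and 122 without WT day 0 replicate 1 and 204 and 159 without WT day 6 replicate 1. Where limma called 0 genes below WT, 1349, 1742 and 1391 had an unadjusted p under 0.05 (without Pcgf5-/- day 6 replicate 1, Pcgf5-/- day 6 replicate 2 and WT day 0 replicate 2).

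**Figure D5:**
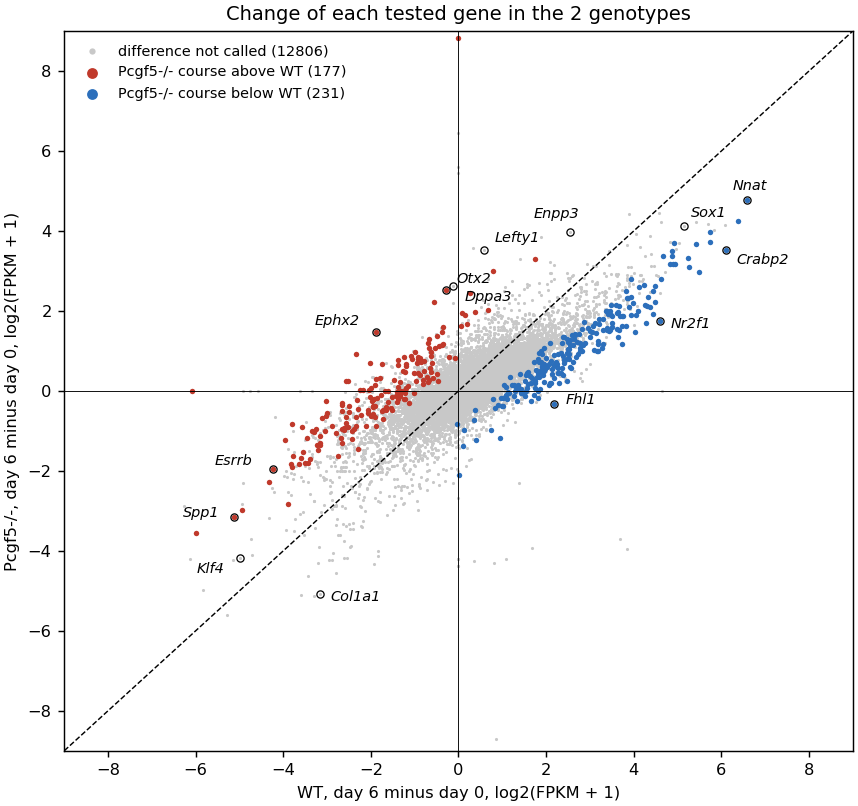
Change of each tested gene from day 0 to day 6 in WT (horizontal) and Pcgf5-/- cells (vertical), both as differences of log2(FPKM + 1), with a dashed line where they are equal. Red points (177) had a course above WT and blue points (231) a course below it by the test of the difference. Circles mark named genes. The labels Sox1, Klf4, Col1a1, Lefty1, Dppa3 and Enpp3 belong to genes whose difference was not called.

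Several of the naive genes fell by less in Pcgf5-/- cells than in WT. The change of Esrrb was -1.95 ± 0.16 in Pcgf5-/- and -4.24 ± 0.16 in WT, a difference of 2.29 ± 0.23 (adjusted p = 0.014). WT cells held 7.77 and 5.45 FPKM at day 6. Nanog differed by 1.88 ± 0.36 (adjusted p = 0.04) and Tfcp2l1 by 1.96 ± 0.32 (adjusted p = 0.03), both with the smaller fall in Pcgf5-/- cells. Klf4 fell in both, with a difference of 0.82 ± 0.41 that was not called (adjusted p = 0.27). Pou5f1 fell in WT to 93.8 and 36.2 FPKM at day 6, and its difference of 2.06 ± 0.50 missed the threshold (adjusted p = 0.065). Otx2 rose in Pcgf5-/- cells and had a change of -0.28 ± 0.42 in WT, a difference of 2.80 ± 0.60 (adjusted p = 0.049).

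On the neural side Crabp2, Elavl3, Nr2f1 and Ednrb rose in Pcgf5-/- cells by less than in WT, while Sox1 and Neurod1 had no called difference. Crabp2 rose by 3.53 ± 0.30 in Pcgf5-/- and 6.10 ± 0.30 in WT, a difference of -2.57 ± 0.43 (adjusted p = 0.031). Elavl3 differed by -2.57 ± 0.28 (adjusted p = 0.019), Nr2f1 by -2.84 ± 0.39 (adjusted p = 0.024) and Ednrb by -2.52 ± 0.25 (adjusted p = 0.014). The WT samples held 26.5 and 38.0 FPKM at day 6 of Nr2f1. The difference of Sox1, -1.003 ± 0.32, was not called (adjusted p = 0.11), nor was that of Neurod1, whose changes of 2.83 ± 0.25 and 2.86 ± 0.25 were nearly equal (-0.03 ± 0.36, adjusted p = 0.96). Fhl1, a LIM-domain gene on the X chromosome, rose in WT by 2.19 ± 0.20 but was at 20.9 and 20.8 FPKM at day 0 and 14.2 and 18.8 FPKM at day 6 in Pcgf5-/- cells, a change of -0.34 ± 0.20 that did not pass (adjusted p = 0.23), with a difference of -2.53 ± 0.28 (adjusted p = 0.02).

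A small set of genes went opposite ways. In all 27 genes rose in Pcgf5-/- cells and fell in WT, 22 of them with a called difference, and 3 fell in Pcgf5-/- cells and rose in WT. Ephx2, soluble epoxide hydrolase, was at 2.54 and 1.80 FPKM at day 0 and 6.38 and 9.303 FPKM at day 6 in Pcgf5-/- cells and at 14.1 and 16.6 FPKM at day 0 and 3.45 and 3.40 FPKM at day 6 in WT, changes of 1.47 ± 0.22 and -1.89 ± 0.22 and a difference of 3.36 ± 0.31 (adjusted p = 0.014). The 3 genes of the other kind were Ntn1, Fzd9 and Tspan14. Fzd9 and Tspan14 are named after their values were seen. Ntn1, the axon guidance cue netrin 1, was at 12.5 and 10.3 FPKM at day 0 and 5.75 and 4.70 FPKM at day 6 in Pcgf5-/- cells and at 10.3 and 9.91 FPKM at day 0 and 18.3 and 16.8 FPKM at day 6 in WT, a difference of -1.72 ± 0.24 (adjusted p = 0.024). Fzd9, a frizzled receptor, was at 4.43 and 4.32 FPKM at day 0 and 1.47 and 1.26 FPKM at day 6 in Pcgf5-/- cells, a change of -1.19 ± 0.21. Tspan14, a tetraspanin, was at 25.01 and 25.5 FPKM at day 0 and 18.4 and 17.4 FPKM at day 6, a change of -0.48 ± 0.12 (adjusted p = 0.02) that was lost with any 1 sample left out (adjusted p 0.056 to 0.088). Enpp3, a nucleotide phosphodiesterase, was among the 15 largest rises in Pcgf5-/- cells, at 3.27 and 2.11 FPKM at day 0 and 64.2 and 49.0 FPKM at day 6, a change of 3.97 ± 0.27, beside 2.54 ± 0.27 in WT (difference 1.43 ± 0.39, adjusted p = 0.083).

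Polycomb complexes gather at promoters rich in CG dinucleotides (CpG), so the bases before the start of the genes that changed were counted. RefSeq promoters on build GRCm38.p6 were matched by symbol for 9897 of the 13214 tested genes, using the first listed start and the 250 bases before it. The motif searched was CG, which reads the same on both strands and was found in 99.2% of these promoters and in 91.7% of those of all 27025 RefSeq symbols. The median was 16 CG per promoter over all tested genes, 16 for the 2146 genes that rose and 14 for the 978 that fell. Genes that fell at least 4-fold had a median of 8 (109 genes) and those that rose at least 4-fold 13 (169 genes). Promoters with 4 or fewer CG made up 33.9% of the former and 14.2% of the latter, beside 9.79% of all. The fibroblast markers, of which 15 matched, had a median of 5, the naive genes (14 matched) 10 and the neural transcription factors (21 matched) 15. These are descriptions with no test.

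The promoters of 2 genes that rose and 2 that fell are shown with CG in capitals, a CG-rich and a CG-poor one of each kind, to let the contrast be seen within each direction. Sox1 (29 CG, chr8:12395269-12395518, plus strand) and Fabp7 (4 CG, chr10:57784673-57784922, plus strand) are the genes that rose. Klf4 (32 CG, chr4:55532476-55532725, minus strand) and Spp1 (3 CG, chr5:104434861-104435110, plus strand, the first of 2 listed starts) are those that fell.
Sox1: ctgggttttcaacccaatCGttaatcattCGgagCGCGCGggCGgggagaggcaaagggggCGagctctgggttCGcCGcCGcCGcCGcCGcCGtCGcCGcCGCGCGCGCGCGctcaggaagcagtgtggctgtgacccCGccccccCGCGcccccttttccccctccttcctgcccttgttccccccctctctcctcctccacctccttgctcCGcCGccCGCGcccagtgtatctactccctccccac
Fabp7: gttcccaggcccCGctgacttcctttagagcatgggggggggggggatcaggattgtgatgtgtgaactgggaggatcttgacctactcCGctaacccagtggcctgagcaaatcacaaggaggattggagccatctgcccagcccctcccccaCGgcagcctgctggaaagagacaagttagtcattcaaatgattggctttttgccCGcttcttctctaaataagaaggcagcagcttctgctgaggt
Klf4: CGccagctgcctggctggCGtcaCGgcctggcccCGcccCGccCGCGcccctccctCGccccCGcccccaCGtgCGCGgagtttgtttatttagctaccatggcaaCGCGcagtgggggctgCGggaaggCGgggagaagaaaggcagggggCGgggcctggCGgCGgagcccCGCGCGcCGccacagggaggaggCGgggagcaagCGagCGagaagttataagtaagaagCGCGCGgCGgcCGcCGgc
Spp1: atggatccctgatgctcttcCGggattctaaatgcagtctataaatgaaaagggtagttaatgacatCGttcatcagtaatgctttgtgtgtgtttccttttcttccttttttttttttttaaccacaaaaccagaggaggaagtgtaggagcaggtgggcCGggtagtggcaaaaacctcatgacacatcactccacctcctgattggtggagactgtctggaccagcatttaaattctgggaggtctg
Sox1 and Klf4 lie at the rich end and Fabp7 and Spp1 at the poor end. They were picked for this contrast, so they do not show how common such promoters were in either direction.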

How the data were processed

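RNA-seq values of 8 samples were used, 4 of them Pcgf5-/- (2 at day 0, 2 at day 6) and 4 WT, grouped by their titles. The authors trimmed the reads, removed short and identical duplicate reads, aligned pairs to mm9 and deposited FPKM per gene. The submitters' processing notes name TopHat2 2.0.4 and Cufflinks 2.1.1. The annotation is not given in the sources used here. Dropping identical reads can lower the FPKM of strongly expressed genes, and FPKM carry no counts, so no depth or counting interval could be given.

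The deposited FPKM were taken as log2(FPKM + 1) for genes with a mean over 1 in at least 1 group and fitted with limma 3.58.1 (R 4.3.3) in 1 model of group means with a variance trend and no replicate block. The contrasts were day 6 minus day 0 in each genotype and their difference. P-values were adjusted by Benjamini-Hochberg with 0.05 as the threshold. With 2 samples a group, 4 residual degrees of freedom stand behind each gene before limma's shrinkage. Alternatives were pseudocounts of 0.01, 0.1 and 5, no minimum or a minimum of 5 FPKM, quantile, medians-of-ratios and upper-quartile scaling, a replicate block, no trend, loci of at least 300 bp, the Pcgf5-/- samples alone, an added 2-fold limit, and fits without 1 sample.

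The comparison, its gene lists and the rule for named genes were chosen with earlier results of these data known. The rule took 16 fixed genes, the 15 largest rises and 15 largest falls among called genes with a locus of at least 300 bp and no overlap between the days, the 4 largest called changes of each direction and the 2 least changed members of each list, and the 10 largest called differences between the courses of each sign with such a locus. The genes described were picked from these, apart from those said to be named after their values were seen. Promoters came from RefSeq (GRCm38.p6) and exon 2 from GENCODE on NCBIM37, and coordinates of the builds were not mixed. A few genes are not reported here and count only in the totals of their lists. Python 3.11.15 with pandas 2.3.3 handled the tables.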

Additional observations from a re-analysis of the deposited data

Results flagged for a closer look

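The results below stood out because the change from day 0 to day 6 in Pcgf5-/- cells differed from that in WT cells by the limma test of the difference itself (Benjamini-Hochberg adjusted p under 0.05 over 13214 genes). Each value in parentheses is the log2(FPKM + 1) change in Pcgf5-/- minus that in WT. All 34 differences rest on 2 samples a group, and the number of genes so called falls to a few with certain single samples left out, as given with the comparison of the courses.

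Above WT, with a smaller fall in Pcgf5-/- cells, were the pluripotency genes Spp1 (1.99), Esrrb (2.29), Nanog (1.88), Zfp42 (2.29), Mybl2 (0.85) and Tfcp2l1 (1.96). Utf1 (1.96) and Ephx2 (3.36) rose in Pcgf5-/- cells and fell in WT, and Otx2 (2.80) rose in Pcgf5-/- cells and had no called change in WT.

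Below WT were neural genes that rose in both genotypes, by less in Pcgf5-/- cells. They were the transcription factors Sox3 (-1.76), Sox11 (-1.77), Meis1 (-1.23), Pax6 (-1.38), Hes5 (-1.64), Irx3 (-2.16), Nr2f1 (-2.84) and Pax3 (-2.55), the progenitor and neuronal genes Nnat (-1.81), Nes (-1.35), Tubb3 (-1.53), Elavl3 (-2.57) and Ednrb (-2.52), and the signalling genes Sfrp2 (-1.91), Crabp1 (-2.03), Crabp2 (-2.57), Boc (-1.82) and Gli3 (-1.47). Dbx1 (-2.12) was listed at 0 in all 4 day 0 samples, so its value is the difference at day 6 alone. The PRC1 genes Phc2 (-1.15) and E2f6 (-0.91) also rose by less.

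Of the remaining genes below WT, Fhl1 (-2.53) rose in WT and had no called change in Pcgf5-/- cells, and Ntn1 (-1.72), Fzd9 (-2.13) and Tspan14 (-0.86) fell in Pcgf5-/- cells and rose in WT. The causes of these differences were not tested.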

How the results depend on the processing

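Of 106 genes whose changes are printed, 81 kept their direction and their side of the threshold under every alternative, and none changed direction. The counts of rises and falls in Pcgf5-/- cells (2898 and 1373) stayed within 1.5 times under other pseudocounts, minimums, scalings, variance models and the fit of the Pcgf5-/- samples alone. They moved to 1383 and 670 when a 2-fold change was also required, which is stricter by construction, and to 1550 to 2171 and 712 to 908 with 1 Pcgf5-/- sample left out. The counts of genes whose course lay above or below WT (177 and 231) were less stable. They were 143 and 108 with a pseudocount of 0.1, 109 and 82 with 0.01, 197 and 385 with 5, 31 and 55 without a minimum FPKM, which adds weakly expressed genes to the test, and 307 and 225 with quantile normalization. With 1 of the 8 samples left out they ranged from 4 to 204 and from 0 to 233. The causes were not tested. A group with 1 sample left was assumed to vary like the others.

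The labels number the replicates alike, but the numbers did not pair the days. The deviations of same-numbered samples correlated at -0.03 between the days in Pcgf5-/- cells and at -0.04 in WT, with 2 pairs each. Between the genotypes they correlated at 0.39 at day 6 and 0.10 at day 0, and the labels do not say that a number marks a shared batch. With the replicate number as a block, 3082 genes rose and 1502 fell, and the differences from WT numbered 204 and 225. Among the genes named, Tubb3 and Hoxb4 lost their call with the block.

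Limits are the 2 samples a group, the unknown depth behind FPKM, which sets how firmly low values can be read, the uncertain number of knockout clones and the feeder mRNA at day 0. Genes with low FPKM have compressed changes, and Pcgf5 itself passed the test with pseudocounts of 0.1 and 0.01 or quantile normalization.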
